A study of Mus musculus with 4 samples.

Results

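The T cell receptor signalling cascade is described here through 39 genes listed by symbol, of 55536 genes in the deposited gene tables. They comprise 21 activators of the cascade, 13 negative regulators and 5 genes with both roles, and all 39 symbols were matched. The RNA came from inflammation-experienced regulatory T cells (Treg), primary cells of 1 adult male mouse of 6 months and the strain Foxp3CreERT2 x Rosa26YFP, in which Foxp3-expressing cells make an inducible Cre recombinase and Rosa26 carries a yellow fluorescent reporter. The labels trace the cells to a bone marrow hematopoietic cell and give polyA plus RNA, Covaris shearing and a size range of 100 to 300. The 4 libraries are technical replicates 1 to 4 of 1 biological replicate and form the only group, so no condition was compared. Every SD below measures the spread between libraries of the same biosample. The p-values test either differences between those libraries against counting noise, or ratios of paired genes against equal levels. None covers variation between mice.

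Depth was 9284432 expected counts in library 1, 9341328 in library 2, 9325636 in library 3 and 6648385 in library 4. All 7 listed Treg and T cell markers stood at 10 TPM (transcript level per length, scaled to the same total in each library) or more in every library, with Foxp3, the defining transcription factor, at 20.3 to 36.4 TPM and Il2ra, the high-affinity chain of the interleukin-2 receptor, at 198 to 214 TPM. Those 7 markers summed to 5457 to 6058 TPM, and each list of markers of other cells summed to less in every library. The 7 B cell markers summed to 93.2 to 197 TPM, the 7 myeloid markers to 5.36 to 27.8, the 6 natural killer and innate lymphoid markers to 6.40 to 21.01, the 2 CD8 chains to 10.1 to 17.3 and the 4 platelet markers to 1.04 to 1.67. The 5 erythroid markers summed to 1065 TPM in library 1 and to 4.60, 38.6 and 17.2 TPM in libraries 2 to 4, with Hba-a1 at 0 in library 2 and Hbb-bt at 0 in library 4. No listed marker was at 0 in all 4 libraries. In bulk RNA, fewer cells that express a gene and less of its RNA per cell cannot be told apart.

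When the T cell receptor binds its ligand, Src family kinases phosphorylate the CD3 chains, ZAP-70 docks there and phosphorylates the adaptors LAT and SLP-76, and the assembled complex turns on phospholipase C, calcium entry, Ras and NF-kappaB. Kinases, phosphatases, ubiquitin ligases and lipid kinases restrain each of those steps. Treg need signals from their receptor for their suppressive function.

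Transcripts of every listed gene of the cascade were found in this population. All 39 members stood at 1 TPM or more in every library, and 33 stood at 10 TPM or more in every library. Among the 13822 genes with a mean of at least 1 TPM, 12008 stood at 1 TPM or more in every library. At 10 TPM or more in every library stood 48.8% of them. The members had a median of 64.8 TPM, against 12.8 TPM for those 13822 genes. The levels spanned a wide range, with Lck at 1449 ± 151 TPM (SD, n = 4) at the top and Sos1 at 4.01 ± 0.686 TPM (SD, n = 4) at the bottom. TPM is a level per transcript length, so it can be compared between genes within a library.

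**Figure D1:**
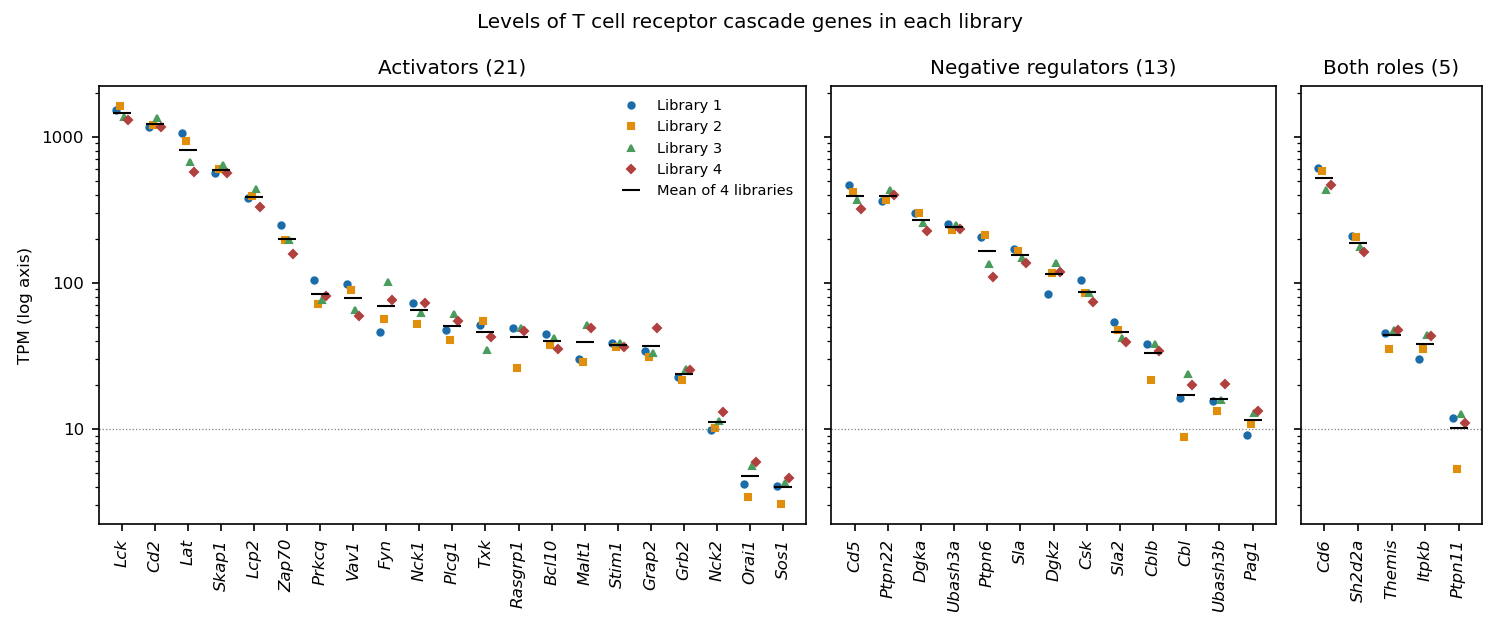
Level of each of the 39 genes in each library, in TPM on a log axis. Points are single libraries, black bars the mean of the 4, and the dotted line 10 TPM. Lck, Cd2 and Lat lead the activators, while Sos1 and Orai1 lie under the dotted line in every library.

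Among the proximal kinases, Lck stood far above the others. Lck, the Src family kinase that starts the cascade (ENSMUSG00000000409.14, mm10 chromosome 4, 129548344 to 129573641), had 1523, 1622.5, 1355 and 1295 TPM in libraries 1 to 4 and ranked 108 of the 13822 genes. Zap70, the kinase that docks on phosphorylated CD3 chains (ENSMUSG00000026117.10, chromosome 1, 36761798 to 36782818), had 247, 196, 195 and 157 TPM. Library 1 was the highest and library 4 the lowest for Zap70, while libraries 2 and 3 were nearly equal. Fyn, the other Src family kinase listed (ENSMUSG00000019843.14, chromosome 10, 39368855 to 39565381), had 45.8, 56.0, 101 and 76.4 TPM, with libraries 3 and 4 above libraries 1 and 2. Txk, a Tec family kinase, had 51.3, 54.6, 34.8 and 42.6 TPM, with libraries 1 and 2 above libraries 3 and 4. The log2 ratio of Lck over Fyn was 4.43 ± 0.62 (SD, n = 4) and that of Zap70 over Txk was 2.12 ± 0.31.

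The Lck gene has a distal promoter, used in mature T cells, and a proximal promoter, used mainly in thymocytes. The distal start dominated here. Lck-202, the transcript that begins at the distal start at 129573641, held 67.4, 63.5, 66.8 and 60.6% of the gene's TPM in libraries 1 to 4. The coding transcripts at the proximal start, led by Lck-208 at 129558372, together held 14.2, 15.2, 12.5 and 18.4%. The distal share was the larger in all 4 libraries. In the table made from the reads and an index, the shares were 66.9 ± 1.84% (SD, n = 4) for the distal and 6.20 ± 0.681% for the proximal start. There Lck-201 led the proximal start at 5.23%, and Lck-208 held 0.526%. The retained-intron transcript Lck-207 made up most of the rest of TPM, at 18.0 to 20.7%. It is 450 bases long and held 3.43% of the gene's expected counts. The sequences of both promoters follow, since start use is what these transcripts differ in. They are the 250 bases before each start in RefSeq's promoter table (GRCm38.p6), on the minus strand, at chr4:129573642-129573891 for the distal and chr4:129558373-129558622 for the proximal promoter. Capitals mark matches to the motifs searched.
Lck distal: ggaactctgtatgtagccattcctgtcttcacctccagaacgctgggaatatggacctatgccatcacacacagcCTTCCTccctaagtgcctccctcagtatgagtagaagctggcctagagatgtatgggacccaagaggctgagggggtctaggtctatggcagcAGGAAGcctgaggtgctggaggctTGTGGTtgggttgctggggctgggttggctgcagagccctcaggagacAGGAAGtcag
Lck proximal: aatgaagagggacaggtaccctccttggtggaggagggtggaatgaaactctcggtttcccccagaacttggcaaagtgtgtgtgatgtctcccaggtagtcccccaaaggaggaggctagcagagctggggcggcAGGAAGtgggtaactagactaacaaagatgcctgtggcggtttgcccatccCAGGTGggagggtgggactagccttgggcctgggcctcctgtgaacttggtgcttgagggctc
Both strands were searched for AGGAAG, which is the core that ETS factors bind. RUNX factors bind the core TGTGGT, which was searched likewise, as was the E-box CAGNTG. The last motif searched was the TATA box, written TATAAA. The distal promoter held AGGAAG 3 times, 1 of them on the opposite strand, and TGTGGT once. The proximal promoter held AGGAAG once and CAGNTG once. No matches overlapped. Of 32817 RefSeq mouse promoters cut to the same length, 29.5% hold AGGAAG, 14.0% TGTGGT, 44.8% CAGNTG and 12.4% TATAAA. These matches describe the letters and show no binding.

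Fyn is spliced with either of a pair of mutually exclusive exons ahead of the kinase domain, one typical of T cells and the other of brain. The T cell form led here, but the size of its lead depended on the quantification. Transcripts with the 156-base exon, led by Fyn-201 with a coding sequence of 1602 bases, held 77.1, 72.6, 68.0 and 76.8% of the TPM of Fyn transcripts that span the site in libraries 1 to 4. Fyn-202, with the 165-base exon and a coding sequence of 1611 bases, held 9.92, 23.3, 10.3 and 15.1%. Fyn-206, with neither exon, held the remaining 12.9, 4.02, 21.7 and 8.13%. The T cell exon led in every library. In the table made from the reads and an index the shares were 50.4 ± 4.34%, 28.8 ± 4.25% and 20.8 ± 2.92% (SD, n = 4), in the same order. Both exons are shown in capitals with 24 bases of the neighbouring exons in lower case, from GENCODE M21 on mm10, plus strand, at chr10:39529919-39530074 for the first and chr10:39529437-39529601 for the second.
Fyn-201 exon: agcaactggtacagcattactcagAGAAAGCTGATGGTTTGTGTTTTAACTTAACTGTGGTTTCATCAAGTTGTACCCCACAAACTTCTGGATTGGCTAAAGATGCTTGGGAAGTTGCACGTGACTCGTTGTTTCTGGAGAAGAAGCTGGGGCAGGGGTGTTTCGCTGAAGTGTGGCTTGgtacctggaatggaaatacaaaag
Fyn-202 exon: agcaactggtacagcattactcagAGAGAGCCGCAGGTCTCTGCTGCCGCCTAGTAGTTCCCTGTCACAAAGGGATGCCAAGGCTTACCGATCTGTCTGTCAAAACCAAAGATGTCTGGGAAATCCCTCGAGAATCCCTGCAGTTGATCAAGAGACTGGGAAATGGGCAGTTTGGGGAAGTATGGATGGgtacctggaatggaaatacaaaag

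The membrane adaptor Lat and its partner Lcp2 were both abundant. Lat, the scaffold that ZAP-70 phosphorylates (ENSMUSG00000030742.7, chromosome 7, 126363824 to 126369570), had 1055, 940, 674 and 576 TPM in libraries 1 to 4. Lcp2, which encodes SLP-76, had 382, 390, 441 and 332 TPM. Lat was lower in libraries 3 and 4 than in libraries 1 and 2, whereas Lcp2 was highest in library 3. The log2 ratio of Lat over Lcp2 was 1.04 ± 0.40 (SD, n = 4). Skap1, an adaptor in integrin activation, had 567, 597, 636 and 568 TPM, with a coefficient of variation of 5.50%. Grap2, which encodes Gads and joins SLP-76 to LAT, had 34.3, 31.0, 33.0 and 48.9 TPM, with library 4 the highest. The Ras-linked adaptor Grb2 had 22.6, 21.4, 25.6 and 25.3 TPM. Of the actin-linked Nck adaptors, Nck1 had 72.6, 52.3, 61.9 and 72.6 TPM and Nck2 had 9.74, 10.1, 11.3 and 13.1 TPM. Nck1 was higher than Nck2 in all 4 libraries, with a log2 ratio of 2.54 ± 0.24.

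Coding segments of the adaptors were also alternative. Most Lat transcripts that span the site carried a 30-base coding segment on chr7:126368186-126368215, minus strand, at 94.6, 91.2, 90.2 and 86.6% of TPM. A 48-base coding segment of Skap1 on chr11:96723350-96723397, plus strand, was carried by a minority, at 19.3, 17.8, 22.7 and 20.4%. In the table made from the reads and an index the shares were 97.8 ± 0.762% for Lat and 21.6 ± 1.38% for Skap1 (SD, n = 4). Both lengths are multiples of a codon, so the reading frame runs on without them. The sequences below show each segment in capitals with 24 bases on either side, from GENCODE M21.
Lat-201 segment: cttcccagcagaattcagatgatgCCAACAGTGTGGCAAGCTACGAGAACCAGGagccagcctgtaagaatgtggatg
Skap1-204 segment: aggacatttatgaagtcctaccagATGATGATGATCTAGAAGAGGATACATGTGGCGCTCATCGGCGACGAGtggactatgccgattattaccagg

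The effectors below the adaptors lay mostly in a middle band, with Sos1 and Orai1 far under the others. Plcg1, the phospholipase C that makes the second messengers, had 47.2, 40.3, 61.4 and 54.4 TPM in libraries 1 to 4. Vav1, an exchange factor for Rac, had 98.6, 89.8, 65.0 and 59.1 TPM, with libraries 1 and 2 above the other pair. Prkcq, protein kinase C theta, had 105, 71.3, 75.7 and 80.5 TPM. Bcl10 and Malt1, which join in the complex that leads to NF-kappaB, had like means of 39.8 ± 4.06 and 39.6 ± 12.0 TPM (SD, n = 4), but not in protein-coding transcripts alone, where Bcl10 had 38.5 ± 3.97 and Malt1 11.6 ± 2.23 TPM. Malt1 had 29.9, 28.7, 51.1 and 48.7 TPM and Bcl10 44.2, 37.7, 42.1 and 35.3, so Bcl10 was above Malt1 in libraries 1 and 2 and below it in libraries 3 and 4. Rasgrp1, the exchange factor that diacylglycerol recruits to Ras, had 49.2, 26.2, 48.7 and 46.5 TPM, with library 2 standing apart. Sos1, the exchange factor that Grb2 brings to Ras, had 4.09, 3.04, 4.27 and 4.64 TPM. Rasgrp1 lay above Sos1 by 3.35 ± 0.22 on the log2 scale and did so in all 4 libraries. Stim1, the calcium sensor of the endoplasmic reticulum, varied least of all members, at 38.7, 36.2, 38.6 and 36.5 TPM. Orai1, the pore of the channel that Stim1 opens, had 4.19, 3.43, 5.54 and 5.96 TPM, from 46 to 72 counts per library. The costimulatory receptor gene Cd2, counted here with the activators, had 1167, 1209, 1337 and 1156 TPM and was the second most abundant member.

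By gene level, the negative regulators were led by a receptor and a phosphatase. Cd5, an inhibitory coreceptor (ENSMUSG00000024669.8, chromosome 19, 10717116 to 10739002), had 463, 415, 369 and 319 TPM in libraries 1 to 4. Ptpn22, a tyrosine phosphatase that acts on Src family kinases and ZAP-70 (ENSMUSG00000027843.13, chromosome 3, 103859795 to 103912247), had 362, 365.5, 430 and 400 TPM. Their means of 392 ± 61.7 and 389 ± 31.9 TPM (SD, n = 4) differed by less than the spread between libraries. In protein-coding transcripts alone Cd5 still led, at 366 ± 62.9 TPM, but Ptpn22, at 149 ± 5.66, lay below Dgka at 232 ± 49.3 and near Ptpn6 at 155 ± 49.5 and Sla at 152 ± 16.3 (SD, n = 4 each). The log2 ratio of Ptpn22 over Ptpn6 was 1.29 ± 0.56 by gene level and 0.003 ± 0.51, with mixed signs, in those transcripts. Coding transcripts held 38.3% of Ptpn22 by TPM but 51.4% by expected counts. Ptpn6, which encodes the phosphatase SHP-1 (ENSMUSG00000004266.15, chromosome 6, 124720707 to 124738714), had 204, 213, 133 and 110 TPM, and libraries 1 and 2 lay above libraries 3 and 4. B cell markers, from cells that also express Ptpn6, summed to 197, 134, 93.2 and 161 TPM in the same libraries, and their part in the Ptpn6 level was not tested. Csk, the kinase that puts the inhibitory phosphate on Lck, had 104, 84.6, 85.6 and 74.3 TPM. Pag1, the membrane adaptor that binds Csk, had 9.09, 10.8, 12.9 and 13.2 TPM and was the lowest negative regulator. Lck lay above Csk by 4.06 ± 0.17 and Csk above Pag1 by 2.92 ± 0.43 on the log2 scale.

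Several negative regulators come as related pairs, and in gene TPM one gene of each pair was the higher in every library. By gene level, the phosphatase-related genes Ubash3a and Ubash3b differed most of these pairs. Ubash3a had 254, 229, 248 and 233 TPM and Ubash3b had 15.5, 13.2, 15.7 and 20.2 TPM, a log2 ratio of 3.91 ± 0.26 (SD, n = 4). Dgka, a kinase that removes diacylglycerol, had 301, 302, 255 and 225 TPM. Dgkz, its relative, had 83.9, 117, 137 and 118 TPM, and the log2 ratio of Dgka over Dgkz was 1.26 ± 0.44. In protein-coding transcripts alone the order of these differences turned, with 5.05 ± 1.08 for Dgka over Dgkz and 2.22 ± 0.34 for Ubash3a over Ubash3b. Dgka also stood above Rasgrp1, whose activating lipid it removes, and the log2 ratio of Rasgrp1 over Dgka was -2.70 ± 0.57. Sla, which encodes a Src-like adaptor, had 169, 166, 147 and 136 TPM and Sla2 had 53.6, 47.8, 41.8 and 39.5 TPM. Their ratio of 1.76 ± 0.07 was the steadiest of the 20 pairs examined. The ubiquitin ligase gene Cblb had 38.2, 21.4, 37.9 and 34.3 TPM and Cbl had 16.2, 8.82, 23.7 and 19.9 TPM, with library 2 the lowest for both. Their log2 ratio of 0.99 ± 0.30 became -0.07 ± 0.47 in the table made from the reads and an index, so the order of Cblb and Cbl was not settled.

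The genes with both roles divided into abundant surface or adaptor genes and lower ones. Cd6, a coreceptor related to Cd5, had 610, 579, 431 and 465 TPM in libraries 1 to 4 and lay above Cd5 in each of them. The log2 ratio of Cd5 over Cd6 was -0.41 in these tables and 0.040 in length-scaled M4 units, from the authors' counts on an older annotation. In protein-coding transcripts alone that ratio was -0.09 ± 0.17 (SD, n = 4), with Cd5 the higher in library 3. Sh2d2a, which encodes the T cell specific adaptor, had 210, 204, 175 and 163 TPM. Themis, a regulator of SHP-1 known best in thymocytes, had 45.4, 35.2, 47.7 and 47.5 TPM. Itpkb, a kinase that converts inositol trisphosphate, had 29.9, 35.3, 44.1 and 43.4 TPM. Ptpn11, which encodes the phosphatase SHP-2, had 11.8, 5.30, 12.6 and 11.0 TPM, with library 2 apart from the rest. The log2 ratio of Ptpn6 over Ptpn11 was 4.03 ± 0.92, and Ptpn6 was higher in all 4 libraries.

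Whether activators or negative regulators were the more abundant depended on how the genes were summarised. By the median gene, activators lay lower. The median activator stood at 49.2, 52.3, 61.4 and 54.4 TPM in libraries 1 to 4, against 104, 117, 133 and 110 TPM for the median negative regulator. On the log2(TPM + 1) scale the difference, activators minus negative regulators, was -1.06, -1.15 and -1.11 in libraries 1 to 3 and nearest to 0 in library 4, with a mean of -1.08 ± 0.06 (SD, n = 4). By the mean gene the sign turned, since activators averaged 252 ± 18.5 TPM and negative regulators 149 ± 10.9 TPM, a log2 ratio of 0.76 ± 0.01. With the mean of log2 values the difference was -0.17 ± 0.05. A mean of at least 100 TPM was reached by 6 of the 21 activators, namely Lck, Cd2, Lat, Skap1, Lcp2 and Zap70. It was reached by 7 of the 13 negative regulators and by 1406 of the 13822 genes with a mean of at least 1 TPM. In protein-coding transcripts alone Dgkz, at 7.57 TPM, and Ubash3a, at 75.1 TPM, fell under that level, and the 6 activators stayed above it. Those activators included the 4 most abundant members of all, and the 2 lowest members by TPM, Sos1 and Orai1, were also activators. In length-scaled M4 units the negative regulator Pag1, at 1.08, and the activator Nck2, at 2.39, lay below Sos1 at 3.33 and Orai1 at 4.27. In CPM, counts scaled to a common total but not divided by length, the difference of medians was -0.36 ± 0.13. No test was made on these differences, because the genes were listed by hand with earlier results in view.

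**Figure D2:**
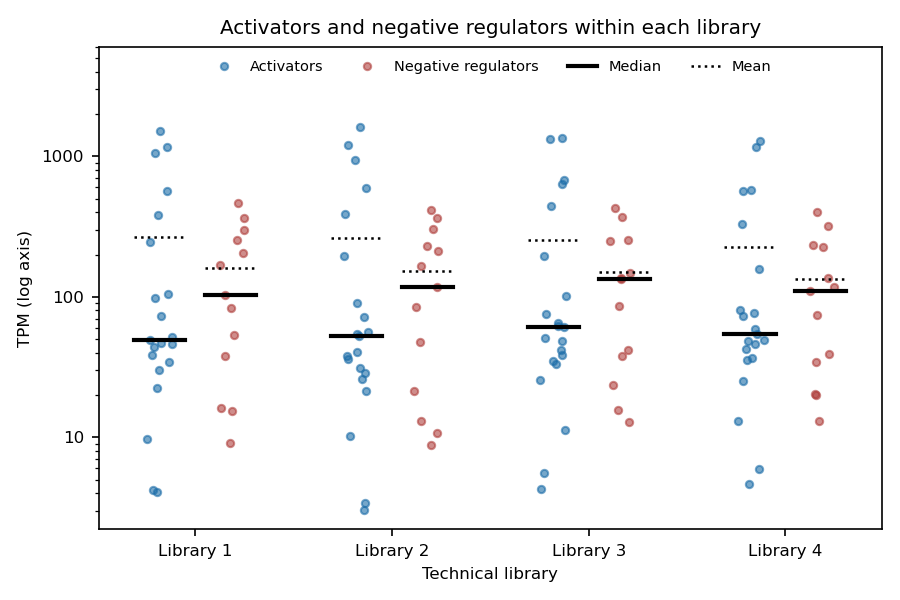
Levels of the 21 activators and the 13 negative regulators within each library, in TPM on a log axis. Each point is 1 gene, solid bars are medians and dotted bars are means. In every library the activators have the lower median and the higher mean.

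By gene level, 19 of the 20 pairs kept one sign in all 4 libraries. In 18 of those the mean log2 ratio was more than 2 SD from 0. The exception in sign was Bcl10 over Malt1, at 0.05 ± 0.50 (SD, n = 4). It was 1.10 ± 0.52 in length-scaled M4 units and 1.74 ± 0.34 in protein-coding transcripts, where Bcl10 was the higher in all 4 libraries. Over 4 libraries an exact permutation test that flips signs, two-sided, cannot go below p = 0.13, and the smallest value adjusted over the 20 pairs by Benjamini-Hochberg was also 0.13, so no pair could pass 0.05. Zap70 over Ubash3a, at -0.30 ± 0.22, had one sign in the 4 libraries but lay within 2 SD of 0. It was 0.37 in length-scaled M4 units and 1.13 ± 0.26 in protein-coding transcripts, where it was positive in all 4 libraries. Ptpn22 over Ptpn6, Cblb over Cbl, Grap2 over Grb2 and Cd5 over Cd6 had mixed signs in protein-coding transcripts, so the count of pairs with one sign holds for gene levels only.

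**Figure D3:**
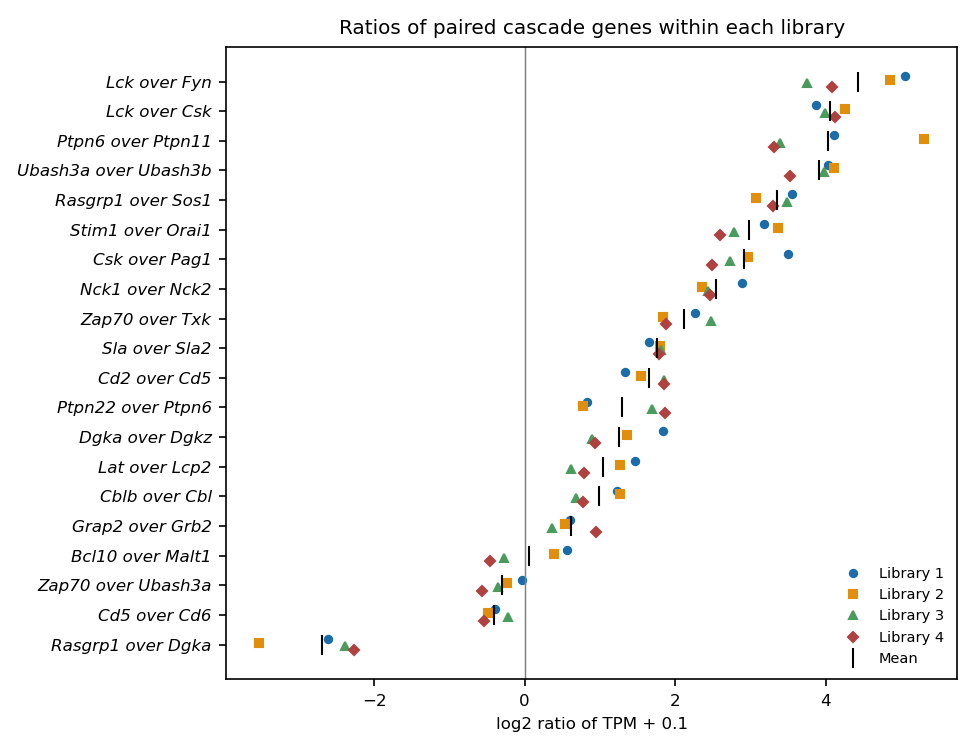
The log2 ratio of TPM + 0.1 for 20 pairs of cascade genes, ordered by their mean. Points are single libraries and black bars are means of the 4, with 0 marking equal levels. Bcl10 over Malt1 lies on both sides of 0, and Ptpn6 over Ptpn11 and Lck over Fyn are the most spread out.

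Gene levels include transcripts that the annotation does not class as protein-coding, and their share of TPM was large for several negative regulators. Fewer than 50% of TPM lay in protein-coding transcripts for 6 of 39 members, against 17.9% of 6881 protein-coding genes with a mean of at least 10 TPM. They were 1 of 21 activators, Malt1, 4 of 13 negative regulators, Dgkz, Ubash3a, Ptpn22 and Pag1, and 1 of 5 genes with both roles, Itpkb. Over all members 15.4% were under that level, close to the background. By expected counts, which weight long transcripts more, 4 members were under 50%, and the share over all genes was 9.32%. These were Dgkz at 14.7%, Ubash3a at 36.5%, Itpkb at 42.0% and Malt1 at 46.1%. Ptpn22 at 51.4% and Pag1 at 85.3% were above that level by counts. In the table made from the reads and an index, the 6 members under 50% by TPM stayed under it. There the activator Prkcq was under it as well, at 43.3 ± 9.82% (SD, n = 4), against 62.5% by TPM.

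Dgkz was the extreme case. Its protein-coding transcripts held 6.74 ± 3.16% of the gene's TPM (SD, n = 4), or 6.55, 3.11, 8.65 and 12.0 TPM in libraries 1 to 4. Retained-intron transcripts held 51.0 ± 4.28% and transcripts marked for nonsense-mediated decay 37.5 ± 5.38%, led by Dgkz-212. By expected counts the order turned, with 15.6 ± 2.25% in retained-intron transcripts, 68.5 ± 5.99% in those marked for decay and 14.7 ± 6.51% in coding ones. The retained-intron transcript Dgkz-209, 480 bases long, held 29.3% of TPM but 5.71% of expected counts. For Ubash3a, the leading transcript was Ubash3a-204, annotated as a processed transcript with no coding sequence, at 41.0, 42.3, 41.8 and 34.4%. Protein-coding transcripts held 31.0 ± 3.15% of Ubash3a, a level of 75.1 ± 11.3 TPM. For Ptpn22 the coding transcript Ptpn22-201 held 38.3 ± 2.52% and retained-intron transcripts 47.7 ± 4.81%, which left 149 ± 5.66 TPM in coding transcripts. Pag1 had 39.9 ± 9.58% in coding transcripts by TPM but 85.3 ± 3.66% by expected counts. Its leading transcript by TPM, Pag1-202, is 1158 bases long, and its coding transcript Pag1-204 is 8256 bases long. Itpkb was led by the retained-intron transcript Itpkb-202 at 65.4 ± 4.62%, and Malt1 held 65.8 ± 5.86% in retained-intron transcripts. With TPM of protein-coding transcripts alone, a measure added after the values were seen, the difference of medians between activators and negative regulators was -0.76 ± 0.18.

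**Figure D4:**
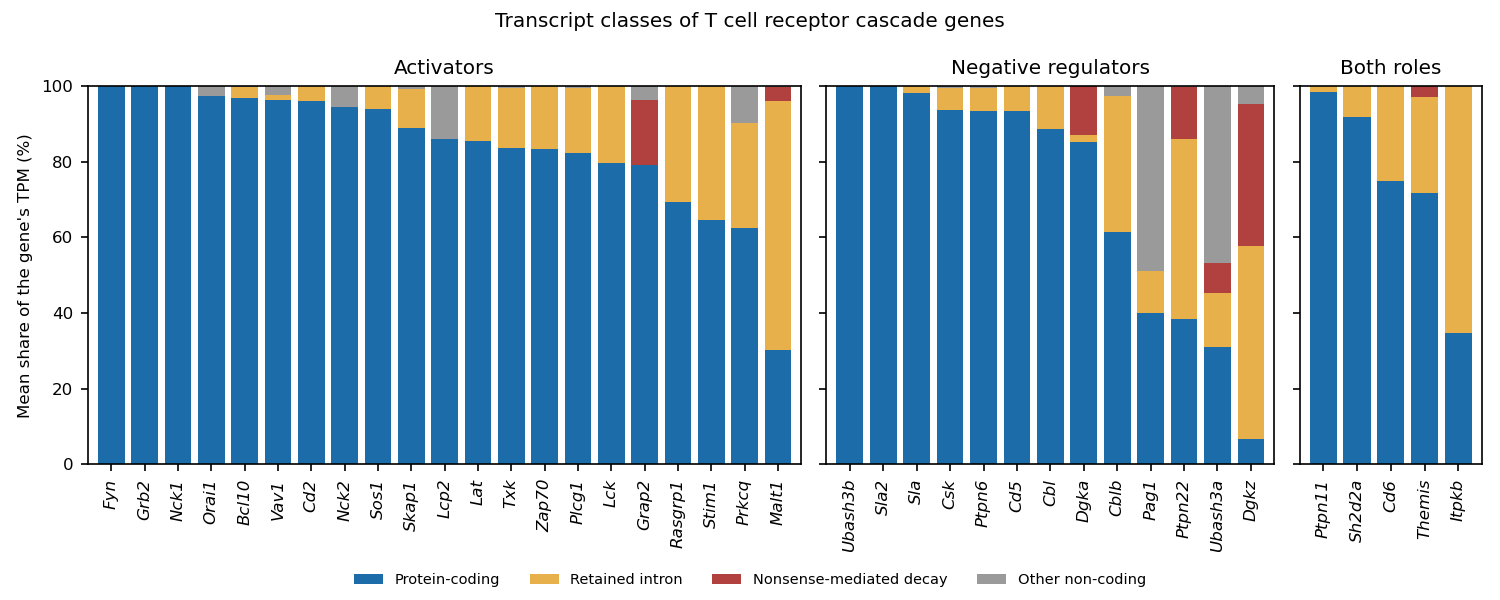
Mean share of each gene's TPM, in percent over the 4 libraries, in annotated transcript classes. Genes are ordered by their protein-coding share within each set. The protein-coding bar falls under 50% for Malt1 among activators, for Pag1, Ptpn22, Ubash3a and Dgkz among negative regulators, and for Itpkb.

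In 14 of 39 members the leading transcript held under 60% of the gene's TPM. The share over all genes was not worked out, so the count describes these members only. Besides Malt1, Pag1, Ptpn22, Ubash3a and Dgkz, these were Lcp2 with Lcp2-201 at 53.5 ± 5.02% (SD, n = 4), Nck1 with Nck1-201 at 52.2 ± 5.46%, Skap1 with Skap1-201 at 51.7 ± 2.60%, Grap2 with Grap2-202 at 43.0 ± 5.47%, Cblb with Cblb-201 at 42.7 ± 3.75%, Cbl with Cbl-211 at 41.7 ± 9.59% and Themis with Themis-201 at 35.4 ± 4.64%. The estimated balance of the other 2 differed between these libraries of the same biosample, so it was not settled. Rasgrp1-201 held 75.4, 2.06, 33.5 and 6.18% and Rasgrp1-207 held 1.79, 65.6, 28.9 and 63.5% in libraries 1 to 4, whereas all coding transcripts at their shared start held 69.2 ± 6.10%. In the table made from the reads and an index, Rasgrp1-207 held 44.3 ± 9.53%. For Ptpn11, the form with a 12-base coding segment on chr5:121144685-121144696, minus strand, held 62.9, 49.7, 43.9 and 0% of the transcripts spanning the site, and 37.6 ± 22.1% in the table made from the reads and an index. A 132-base coding segment of Cbl on chr9:44158977-44159108, minus strand, was in 82.9, 100, 65.4 and 61.4% of spanning transcripts. The leading transcripts of Rasgrp1 and Ptpn11 had the largest SDs among the 39 leading shares, 30.5 and 27.2 percentage points. The 2 segments are shown in capitals between 24 bases on either side, from GENCODE M21.
Ptpn11-201 segment: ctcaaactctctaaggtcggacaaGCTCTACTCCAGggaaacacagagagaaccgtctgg
Cbl-211 segment: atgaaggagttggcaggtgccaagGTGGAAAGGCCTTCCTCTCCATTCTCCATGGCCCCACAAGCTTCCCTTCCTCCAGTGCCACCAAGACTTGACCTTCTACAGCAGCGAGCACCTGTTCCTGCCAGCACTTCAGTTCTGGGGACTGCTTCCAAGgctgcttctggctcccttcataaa

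Other members also used more than 1 start. Ptpn6 has a promoter known in human for blood cells, downstream of one known for epithelial cells. Coding transcripts from the downstream start, led by Ptpn6-202 at 124733154, held 66.1 ± 2.75% of Ptpn6 TPM (SD, n = 4), and those from the upstream start, led by Ptpn6-203 at 124738714, held 27.3 ± 1.10%. Csk was led by Csk-209 at 70.9 ± 7.17%, with 20.3 ± 3.20% from the start of Csk-201. Sla was led by Sla-201 at 70.2 ± 5.80%, with 25.4 ± 6.30% from the start of Sla-202. Nck1 was split about evenly, with 52.2 ± 5.46% from the start of Nck1-201 and 47.8 ± 5.46% from that of Nck1-203, a difference within the spread between libraries. Grap2 had 43.0 ± 5.47% from the start of Grap2-202 and 36.1 ± 5.12% from that of Grap2-201. By expected counts their order turned, with 18.4% for Grap2-202, 1294 bases long, and 71.8% for Grap2-201, 5475 bases long.

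The libraries differed for most members by more than counting noise, though rarely by much. A likelihood ratio chi-square test of a Poisson model with TMM-scaled library sizes (edgeR) found a difference between libraries for 34 of 39 members at a Benjamini-Hochberg adjusted p under 0.05, against 68.4% of the 13045 genes tested. Genes with many counts pass this test at smaller differences. The members called were 17 of 21 activators, 12 of 13 negative regulators and all 5 genes with both roles. Stim1, Grb2, Nck2, Orai1 and Pag1 were not called, with adjusted p values of 0.639, 0.184, 0.0612, 0.0654 and 0.259 from that test. The median member spanned 1.39-fold between its highest and lowest library in normalised counts, and the median gene 1.499-fold.

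A span of at least 2-fold together with the call was found for 2 members, against 15.9% of all genes tested. Ptpn6 had 310, 371, 198 and 169 normalised CPM in libraries 1 to 4, a span of 2.19-fold with an adjusted p of 4.54e-182 in the Poisson test. Ptpn11 had 49.6, 25.5, 54.1 and 47.1, a span of 2.13-fold with an adjusted p of 7.40e-23. Libraries 1 and 2 were high for Ptpn6, whereas library 2 alone was low for Ptpn11. Without library 2, no member was called with such a span. Without library 3, 1 was (Ptpn6), and without library 4, 1 was (Ptpn11). In M4 counts, 5 members had it, namely Fyn, Grb2, Rasgrp1, Cbl and Ptpn11. Fyn with 1.97-fold, Cbl with 1.89-fold, Rasgrp1 with 1.86-fold and Lat with 1.80-fold came next.

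**Figure D5:**
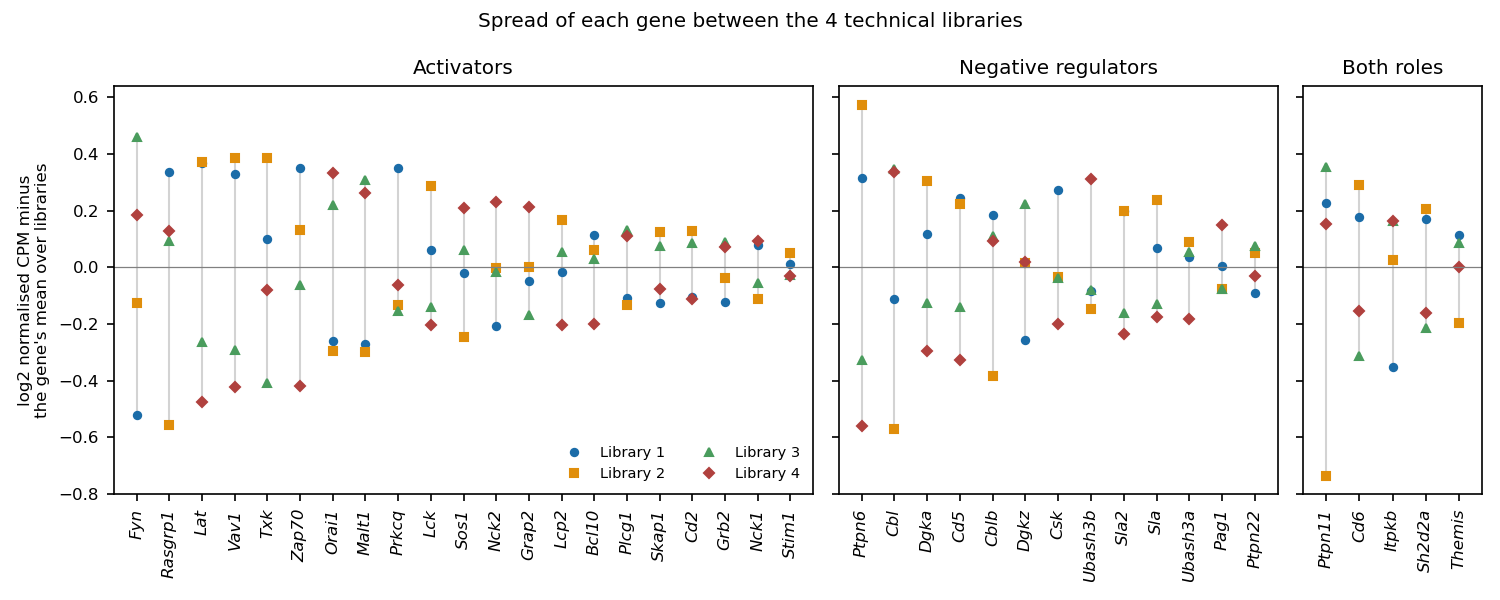
Deviation of each library from the gene's mean, in log2 normalised CPM, with genes ordered by their range. Points are single libraries and grey lines join the lowest to the highest. Ptpn6 and Ptpn11 have the widest ranges, with 2.19-fold and 2.13-fold spans, and Stim1 the narrowest.

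By pairs of libraries, the fewest members differed between libraries 3 and 4, 17 of 39, against 20.6% of all genes tested. The most differed between libraries 2 and 4, 32 of 39, against 42.8%. The other pairs gave 22 for library 1 against 2 (39.9% of genes), 25 for 1 against 3 (44.3%), 27 for 1 against 4 (42.5%) and 23 for 2 against 3 (44.2%). Library 2 was the highest for 15 members (29.6% of all genes tested), library 3 for 9 (20.5%), library 1 for 8 (28.2%) and library 4 for 7 (21.7%). Library 4 was the lowest for 15 members (27.3% of all genes tested), library 2 for 11 (25.1%), library 1 for 7 (25.9%) and library 3 for 6 (21.7%).

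The other genes of the pathway, a list of 43 genes that are no members, were all at 1 TPM or more in every library. Of the 13822 genes with a mean of at least 1 TPM, 12008 were. At 10 TPM or more in every library were 38 of the 43, against 48.8% of those 13822 genes. The median of the 43 was 39.3 TPM. The receptor chains and the phosphatase that activates Lck were at the top, with Cd3g at 1395 ± 123 TPM, Cd3e at 1385 ± 107, Ptprc, which encodes CD45, at 1023 ± 73.1, the adaptor gene Fyb at 564 ± 56.4 and Cd3d at 504 ± 34.1 (SD, n = 4 each). The lowest were Itpr3, a calcium release channel of the endoplasmic reticulum, at 5.51 ± 0.975 TPM, the kinase gene Map3k7 at 5.98 ± 2.30, the calcineurin genes Ppp3ca at 11.2 ± 1.19 and Ppp3r1 at 11.7 ± 3.23, and Traf6 at 11.9 ± 1.78. By the same Poisson test 42 of the 43 differed between libraries (68.4% of all genes tested), and 2 did so with a span of at least 2-fold (15.9%). These were the adaptor gene Dok1 and the Ras GTPase-activating gene Rasal3, named after their values were seen. Rasal3 had 96.5, 46.6, 82.8 and 88.0 TPM, low in library 2.

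The authors' M4 counts gave some members a lower share, and they differ from the M21 tables in annotation, alignment and kind of count, whose parts were not tested. In whole-number counts on GENCODE M4, 8 members had less than 0.5 of their share of counts in the M21 tables, against 17.2% of 10913 genes compared, and none had more than 2-fold its share, against 3.23%. The lowered share of members is near that of all genes, so it says nothing particular about them. The lowered members were Pag1, Itpkb, Nck2, Grb2, Malt1, Ptpn11, Ubash3b and Cbl, from -3.27 for Pag1 to -1.01 for Cbl on the log2 scale. In length-scaled M4 units, Pag1 stood at 1.08 ± 0.214, Itpkb at 5.11 ± 1.35, Nck2 at 2.39 ± 0.746 and Grb2 at 6.06 ± 1.87 (SD, n = 4). Cd2 at 2027 ± 132 and Lck at 1905 ± 190 led in those units, so their order turned. The exons of 10 members overlap exons of a gene on the other strand, among them Lcp2, Skap1, Plcg1, Ptpn6, Dgka, Dgkz and Sla2, and the strand setting of the counting is not given in the sources used here.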

How the data were processed

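PolyA plus RNA-seq of 4 technical libraries of 1 biological replicate was analysed. Per the notes beside the files, the authors derived expected counts and TPM per gene and transcript from transcriptome alignments (mm10, GENCODE M21). The deposited tables also give the percent of a gene's TPM held by each transcript, per the file headers. A further deposited table holds estimated counts and TPM per transcript, made from the reads and an index. The authors' whole-number counts per gene (GENCODE M4) came from a genome alignment. The sources used here give neither programs nor strand setting.

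Rows that name no gene held 0.133, 0.179, 0.178 and 0.504% of expected counts in libraries 1 to 4 and were left out. Members, roles and lists were chosen with earlier results of these data known. The text describes all members. Of the other pathway genes it names the 5 highest and the 5 lowest (others that the rule covers are not reported here), and it names members with a leading transcript under 60% or a span of at least 2-fold. Pair ratios used TPM + 0.1. Expected counts were rounded, and genes averaging 10 counts or more were tested with a Poisson likelihood ratio test on TMM sizes (edgeR 4.0.16), with Benjamini-Hochberg adjustment over all genes. A quasi-likelihood fit was not used, since 1 library per level leaves no residual degrees of freedom. The test was first run on counts simulated under its own Poisson model. That run checked the code and cannot show that the model fits these counts. DESeq2 1.42.0 gave alternative size factors, in R 4.3.3. Tables were handled in pandas 2.3.3 and numpy 2.4.6 (Python 3.11.15), tests in scipy 1.17.1 and plots in matplotlib 3.10.9. M4 counts were matched for 22195 of 22457 genes, divided by effective length (at least 50 bp) and scaled to the TPM total. TPM of the table made from the reads and an index was summed over 22028 protein-coding genes and rescaled in the same way. Coding shares, starts and alternative segments were chosen after the values were seen. Starts within 1000 bases were joined. Technical libraries give the repeatability of a measurement and no biological spread.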

Additional observations from a re-analysis of the deposited data

Results flagged for a closer look

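The levels and leading-transcript shares of the 39 members, the 20 pair ratios and the difference of medians, 99 sets of 4 values in all, were examined for 1 library that stood apart from the other 3 by Dixon's criterion. Chance marks about 1 in 20 such sets, and 5 were marked here. The level of Rasgrp1 was 26.2 TPM in library 2, against 46.5 to 49.2 TPM in the others. The share of Plcg1-203 was 63.3% in library 3, against 71.3 to 72.8%. The share of Vav1-201 was 88.3% in library 4, against 94.6 to 95.2%. The share of Orai1-202 was 89.3% in library 1, against 100% in each of the others, from 46 to 72 counts per library. The share of Ubash3a-204 was 34.4% in library 4, against 41.0 to 42.3%.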

How the results depend on the processing

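No paired analysis was possible because there was 1 group. The count of members at 10 TPM or more was 29 to 35 under all alternatives with that threshold. The difference of medians kept its sign, at -1.06 in the table made from the reads and an index and -1.09 with a pseudocount of 0.1, and ranged from -1.11 to -1.06 with each library left out. It was -0.95 in M4 units, -0.36 in CPM, -0.84 with both-role genes as negative regulators and -1.19 with them as activators. Added after seeing the data were coding transcripts alone (-0.76), the mean of log2 values (-0.17) and the log2 of mean TPM, which reversed it (0.76). Between 29 and 36 members differed between libraries under every alternative. Those that also spanned 2-fold numbered 5 in M4 counts (Fyn, Grb2, Rasgrp1, Cbl and Ptpn11) and 0 to 2 with each library left out. Among pair ratios, Zap70 over Ubash3a turned to 0.37 in M4 units and 1.13 in coding transcripts, Cd5 over Cd6 to 0.040 in M4 units and Cblb over Cbl to -0.071 in the table made from the reads and an index. Bcl10 over Malt1 turned to -0.22 in that table, and lay between -0.12 and 0.23 with each library left out, but it was 1.10 in M4 units and 1.74 in coding transcripts. In coding transcripts Dgka over Dgkz was 5.05, against 1.26 by gene level, and Ptpn22 over Ptpn6 0.003, against 1.29. Cd5 over Cd6 was -0.09 in coding transcripts, against -0.41 by gene level. The causes of these shifts were not tested. The leading share moved by more than 1 SD for 20 of 39 members in that table and for 24 by expected counts. Orai1 had the fewest counts of any member, 46 to 72 per library.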
